A study of Mus musculus with 24 samples.

Results

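The proteasome subunit genes are the genes whose symbol is Psma, Psmb, Psmc, Psmd or Psme followed by a number, taken by name from the gene tables of RNA sequencing of cell fractions. There were 45 of them among 29759 genes of each table: 19 of the core particle (Psma and Psmb), 21 of the base and lid (Psmc and Psmd) and 5 of the activators (Psme). No name with the ending of a pseudogene (-ps) matched. Some of the names are not those of subunits. Psmc3ip encodes a factor of meiotic recombination, and 3 others (Psmd5, Psmd9 and Psmd10) encode chaperones that help to build the regulatory particle. They were taken by name, so they are counted among the 45, the 21 and the members tested below. The cells were E14, a mouse embryonic stem cell line, so every group comes from 1 line with no allele or transgene named. Naive embryonic stem cells (nESC) were grown in N2B27 with LIF and 2i, the MEK inhibitor PD0325901 and the GSK inhibitor CHIR99021. Epiblast-like cells (EpiLC) were the same line collected on day 3 of growth in N2B27 that held 20 ng/ml of activin A and 12 ng/ml of bFGF. Each state gave 3 libraries of chromatin RNA, 3 of nucleoplasm, 3 of cytoplasm and 3 of unfractionated (total) RNA, 24 libraries in 8 groups. Values are FPKM, fragments scaled by transcript length and by library size, so levels can be compared between genes per length.

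The proteasome degrades proteins that carry ubiquitin chains. Its core particle is a barrel of outer alpha rings and inner beta rings, and only some of the beta subunits cut peptide bonds. A regulatory particle with a ring of ATPases in its base and a lid that removes ubiquitin unfolds the substrates and feeds them into the core, and activators can cap the core in its place. Interferon is known to induce other catalytic subunits (Psmb8, Psmb9 and Psmb10) and the activator pair Psme1 and Psme2. Assembly needs the subunits of a ring in like amounts, and the factors NRF1 (gene Nfe2l1) and NRF2 (gene Nfe2l2) are known to act through antioxidant response elements at proteasome genes.

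The sequences before the gene starts of 4 members are shown because results below turn on them: Psmb5 and Psmb6, catalytic subunits with lower values in chromatin than in cytoplasm, Psmb10, the member with the largest difference in total RNA level between the states among those tested in both, and Psme4, the only member called higher in chromatin in both states. They run 5′ to 3′ on the gene's strand, come from RefSeq on GRCm38.p6, and end before both the RefSeq start and the start of the annotated gene. Capitals mark matches on either strand to TGACNNNGC (core of the antioxidant response element), CCAAT, the core of the interferon-stimulated response element, GGGCGG (GC box) or TATAAA.
Psmb5: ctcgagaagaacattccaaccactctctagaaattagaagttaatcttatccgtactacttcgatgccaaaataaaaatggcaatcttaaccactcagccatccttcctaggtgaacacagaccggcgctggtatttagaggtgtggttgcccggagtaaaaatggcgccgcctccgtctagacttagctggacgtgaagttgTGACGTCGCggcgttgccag
Psmb6: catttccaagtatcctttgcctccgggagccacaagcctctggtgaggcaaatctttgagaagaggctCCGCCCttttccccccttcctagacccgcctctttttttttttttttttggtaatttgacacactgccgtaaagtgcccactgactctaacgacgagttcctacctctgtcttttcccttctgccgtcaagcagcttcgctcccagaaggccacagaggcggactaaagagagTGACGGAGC
Psmb10: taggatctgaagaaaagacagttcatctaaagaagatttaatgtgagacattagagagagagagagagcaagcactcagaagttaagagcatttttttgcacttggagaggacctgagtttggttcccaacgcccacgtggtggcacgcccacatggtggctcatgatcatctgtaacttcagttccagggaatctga
Psme4: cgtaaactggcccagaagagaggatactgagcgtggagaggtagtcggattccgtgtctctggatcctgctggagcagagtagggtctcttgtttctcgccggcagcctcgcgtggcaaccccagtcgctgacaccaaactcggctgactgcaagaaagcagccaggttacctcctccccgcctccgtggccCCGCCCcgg
The Psmb5 stretch is chr14:54618023-54618245 on the minus strand and holds 1 TGACNNNGC match. The Psmb6 stretch, chr11:70525107-70525356 on the plus strand, holds 1 TGACNNNGC match at its end and 1 GC box. The Psme4 stretch, chr11:30771525-30771725 on the plus strand, holds 1 GC box, and the Psmb10 stretch, chr8:105938445-105938642 on the minus strand, holds no match to these letters. RefSeq entries were at hand for 38 of the 45 members, 3 of them with 2 starts, which gives 41 windows of 250 bases. TGACNNNGC was in 5 of the 41 (12.2%) against 10.2% of all 32851 windows of that length, and CCAAT was in 15 (36.6%) against 33.8%. GGGCGG was in 22 (53.7%) against 32.7%, TATAAA in 4 (9.76%) against 12.4%, and the core of the interferon-stimulated response element in 3 (7.32%) against 2.98%. Those 3 windows belong to Psmb3, Psmd4 and Psmd9, and none to the interferon-induced members. These are matches of letters and do not mark bound sites.

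For a transcript of 2 kb, 1 FPKM stood for 24.2 to 44.7 fragments in cytoplasm, 31.0 to 48.3 in chromatin and 63.7 to 93.5 in nucleoplasm and total RNA, as read from the spacing of low values. The labels do not say that the 3 libraries of a group are separate cultures, so p-values measure only the spread between these libraries. By the markers of each state, the 5 naive genes summed to 918 to 952 FPKM in nESC total RNA and to 33.3 to 35.9 in EpiLC, and the 4 formative genes to 25.9 to 26.4 and to 928 to 968. Markers of feeders and fibroblasts, of primitive endoderm and of 2-cell-like cells summed to at most 9.91, 1.57 and 10.8 FPKM in total RNA. The 2 EpiLC libraries numbered 3 of chromatin and cytoplasm stood apart. In EpiLC chromatin the mitochondrial transcript mt-Co1 was at 1894, 1133 and 6077 FPKM, and the 14 core genes without Psma8 summed to 787, 767 and 1059, with 13 of the 14 highest in library 3. In EpiLC cytoplasm the nuclear RNA Malat1 was at 157, 191 and 315 FPKM, and all 14 core genes were lowest in library 3. Without both libraries, 1 member was called higher and 39 lower in EpiLC chromatin against cytoplasm, with 2 higher and 15 lower in nucleoplasm against cytoplasm, 34 lower in chromatin against nucleoplasm and 16 higher and 2 lower in cytoplasm against total RNA. Over all 12834 genes tested, these comparisons had, in this order, 3945, 2744, 2212 and 1954 genes called higher. They had 3772, 2695, 2343 and 2464 called lower. In nESC nucleoplasm Malat1 was listed at 3809.8 and 3589.5 FPKM and at 0 in library 3, while the tested members summed to 4685, 4537 and 4622. Without that library 20 members were called in nucleoplasm against cytoplasm, the same 20 as with it. In chromatin against nucleoplasm 23 were called, all among the 24 called with it, and Psma1 was lost. The shares of all genes called without that library are not given here.

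**Figure D1:**
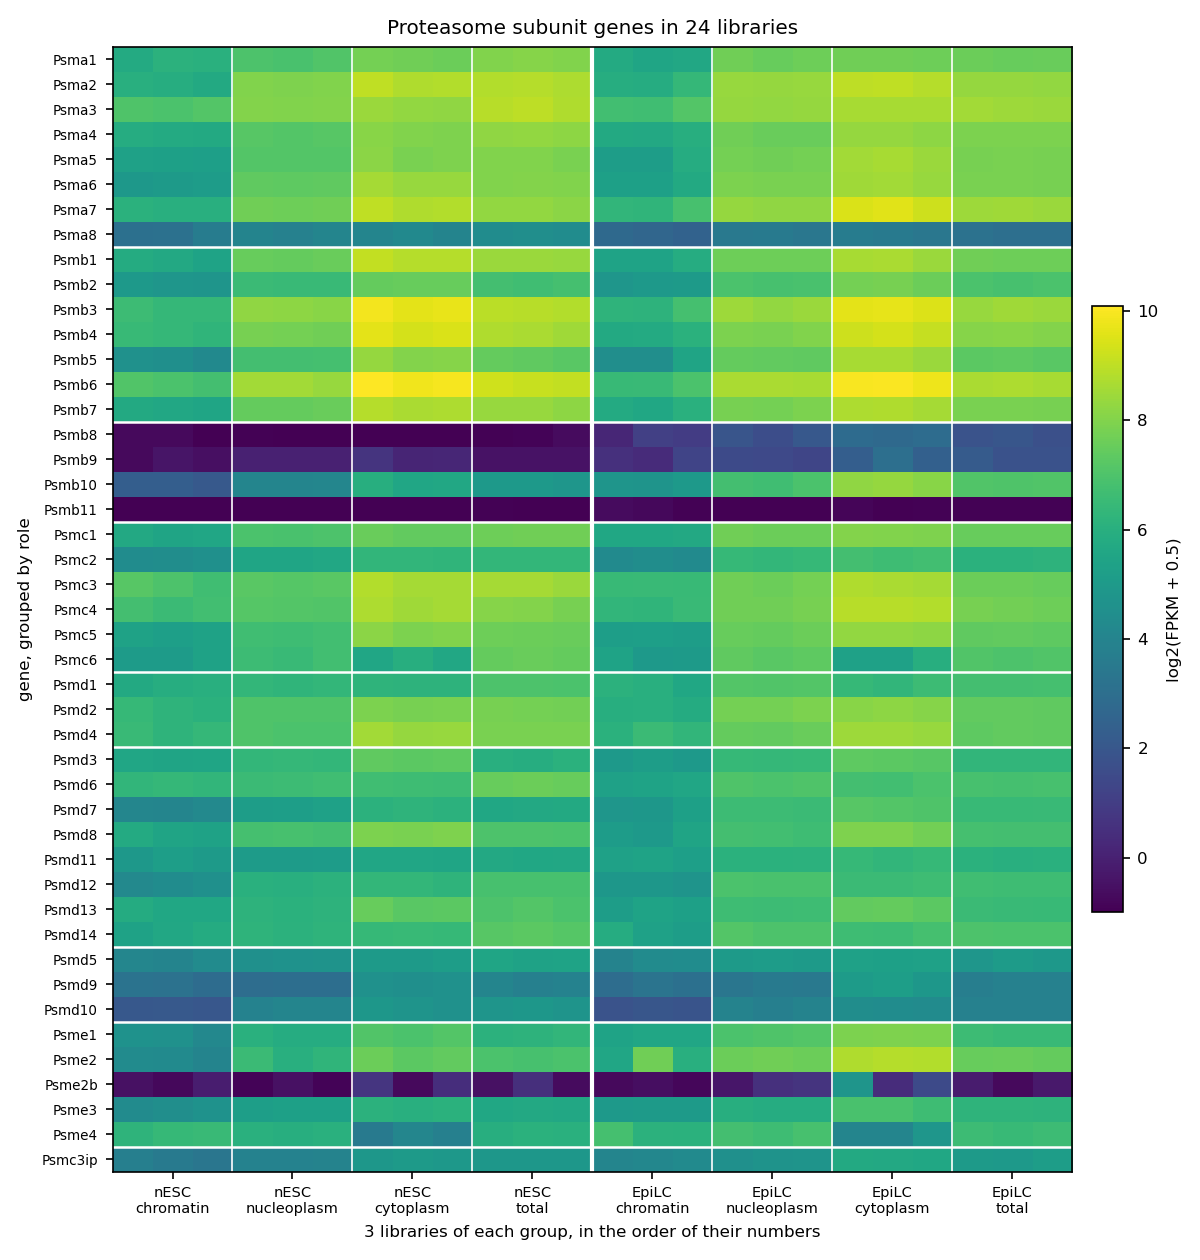
Heat map of log2(FPKM + 0.5) of the 45 members (rows, grouped by role) in the 24 libraries (columns, 3 per group). The chromatin columns are darker than the cytoplasm columns of the same state in nearly all rows, and Psme4 runs the other way. Psmb8 and Psmb9 are at or under 1.10 FPKM in nESC, and stay low in EpiLC chromatin, with means of 1.26 and 1.21.

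Messages of the proteasome were scarce on chromatin and abundant in cytoplasm in both states. Within a state, fractions were compared with limma on log2(FPKM + 0.5), and a gene was called at an adjusted p under 0.05 and at least 2-fold. Members averaging 1 FPKM or more in a state were tested, 41 in nESC and 44 in EpiLC. In nESC 33 of the 41 were lower in chromatin than in cytoplasm and 1 was higher, where 29.7% of all 12592 genes were called lower and 31.8% higher. In EpiLC 40 of 44 were lower and 1 was higher, against 28.4% and 29.1% of 12834 genes. All chromatin libraries lay below all cytoplasm libraries for 40 members in nESC and 42 in EpiLC, against 42.5% and 41.6% of all genes, and above them for 1 in each, against 43.4% and 41.1%. The median log2 fold of the members, chromatin minus cytoplasm, was -1.93 in nESC and -2.30 in EpiLC, where all genes had medians of 0.04 and 0.00. Psmb11 was tested in neither state, and Psmb8, Psmb9 and Psme2b were not tested in nESC. These folds follow the authors' scaling, which sets the libraries to no common sum. With each library scaled to one sum, the median of all genes moved to 1.85 in nESC and 1.69 in EpiLC, and the members split into 7 higher and 10 lower in nESC and 3 higher and 13 lower in EpiLC. The shares of all genes called under this scaling are not given here, so counts under it, here and below, are not set against them. Relative to the median of all genes the members' median was -1.97 and -2.30 under the authors' scaling and -1.81 and -2.23 under the sum. For the level of a gene in a group of bulk samples, fewer cells with a message and less of it per cell cannot be told apart.

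Psmb5 (ENSMUSG00000022193, chr14:54614119-54618022 on GRCm38, minus strand), the catalytic subunit with chymotrypsin-like activity, had the lowest fold of the members before any correction for length. In nESC its FPKM were 23.6, 22.4 and 18.8 in chromatin, 109, 109.6 and 111 in nucleoplasm, 317, 264 and 271 in cytoplasm and 175, 168 and 152 in total RNA. In EpiLC they were 21.8, 22.1 and 43.6 in chromatin, 174, 172 and 168 in nucleoplasm, 393, 394 and 347 in cytoplasm and 157, 159.6 and 151 in total RNA. Every chromatin library lay below every nucleoplasm library, and every nucleoplasm library below every cytoplasm library. EpiLC chromatin library 3, which also held the most mt-Co1, was well above the other 2. The fold was -3.69 (SE 0.10, adjusted p = 1.13e-12) in nESC and -3.75 (SE 0.20, 2.96e-09) in EpiLC, where it was -4.13 without both libraries numbered 3. With values corrected for exonic length and GC content it was -2.24 in nESC, where Psma6 was lower at -2.54. In EpiLC the corrected values were -2.56 for Psmb5 and -2.30 for Psma6.

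Of the groups with several tested genes, the beta ring had the lowest median in both states. All 7 of its genes were lower in chromatin in both states, with medians of -3.14 and -3.22. Psmb2 was at the upper end, with 30.2, 27.7 and 27.2 FPKM in nESC chromatin against 176, 179 and 181 in cytoplasm (-2.64, SE 0.06, adjusted p = 6.18e-13). In EpiLC it had 28.0, 31.6 and 32.3 in chromatin and 215, 222 and 191 in cytoplasm (-2.75, SE 0.09, 6.88e-11), again with no overlap. With each library scaled to one sum, 6 of the 7 were still called lower in each state and the medians were -1.17 and -1.38. Psmb2 was the one lost, at -0.68 in nESC and -0.93 in EpiLC.

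In the alpha ring, which forms the gates of the core, 7 of 8 genes were lower in each state, with medians of -2.44 and -2.70. With each library scaled to one sum, 2 were lower and 1 higher in nESC (median -0.48), and 4 were lower in EpiLC (-0.87). Psma6 was the lowest in nESC, with 30.0, 32.4 and 34.5 FPKM in chromatin against 382, 330.2 and 333 in cytoplasm (-3.41, SE 0.07, adjusted p = 3.65e-13). Psma5 was the lowest in EpiLC, with 35.6, 35.2 and 57.8 in chromatin against 378, 395 and 339.7 in cytoplasm (-3.14, SE 0.16, 1.44e-09). The chromatin and cytoplasm libraries of both genes were far apart. Psma8, a subunit known from the testis, was below the 2-fold limit: its FPKM were 8.07, 8.28 and 12.1 in nESC chromatin and 15.9, 18.5 and 15.7 in cytoplasm (-0.81, SE 0.13, adjusted p = 6.66e-05). In EpiLC it had 6.38, 5.80 and 5.16 against 11.9, 11.3 and 10.1 (-0.89, SE 0.10, 3.15e-06). Its 3 chromatin libraries lay below the cytoplasm libraries in both states, and under the sum scaling the folds ran the other way, at 1.09 in nESC, called, and 0.845 in EpiLC.

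Of the inducible catalytic genes, Psmb10 (ENSMUSG00000031897, chr8:105935735-105938444, minus strand) was tested in both states. Its FPKM were 4.52, 4.44 and 3.77 in nESC chromatin and 62.2, 47.1 and 49.3 in cytoplasm, a fold of -3.48 (SE 0.10, adjusted p = 3.51e-12). In EpiLC they were 27.4, 26.5 and 31.5 in chromatin and 303, 324 and 280.4 in cytoplasm, a fold of -3.39 (SE 0.10, 6.13e-11). Chromatin was below cytoplasm in every library, and Psmb10 stayed called lower under the sum scaling in both states. Psmb9, the least lowered of the 3 inducible genes tested in EpiLC, had 0.954, 0.778 and 1.89 FPKM in chromatin and 4.54, 7.80 and 4.79 in cytoplasm (-1.88, SE 0.24, 9.47e-06). Psmb8 was at -2.11 (SE 0.21, 8.19e-07) there.

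Before any correction for length, the medians of the regulatory particle groups were closer to 0 than those of the alpha and beta rings. The length and GC correction changed the order of single genes in nESC. Psmb2 of the beta ring was then at -1.35, above Psmc6 and Psmd11, whose corrected values are given below. In contrast, Psmc1, Psmc3 and Psmc4 were no longer called. Medians of the groups with this correction are not given here. In the ATPase ring, which unfolds substrates, 5 of 6 genes were lower in chromatin in each state, with medians of -1.85 and -2.37. With each library scaled to one sum, none was lower and Psmc6 was called higher in nESC (median 0.10), and in EpiLC Psmc5 was called lower and Psmc6 higher (median -0.54). Psmc5 was at the lower end, with 41.8, 37.6 and 41.8 FPKM in nESC chromatin and 284, 237 and 254 in cytoplasm (-2.66, SE 0.07, adjusted p = 2.12e-12). In EpiLC it had 36.6, 37.7 and 35.9 in chromatin and 312, 311 and 292 in cytoplasm (-3.04, SE 0.07, 6.13e-11). The groups of Psmc5 did not overlap. Psmc6, another of the 6 ATPases, was not called in either state: it had 33.0, 33.7 and 41.1 FPKM in nESC chromatin and 46.1, 61.2 and 49.9 in cytoplasm (-0.54, SE 0.11, 0.000443). In EpiLC it had 42.5, 31.3 and 32.6 in chromatin and 40.2, 40.1 and 62.0 in cytoplasm (-0.40, SE 0.16, 0.0352). These groups overlapped in EpiLC, where the highest cytoplasm library was number 3, the one with the most Malat1. Without both EpiLC libraries numbered 3 the fold was -0.14.

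Among the other base genes, 2 of 3 were lower in each state, and none of the 3 with each library scaled to one sum. Psmd4, a receptor for ubiquitin chains, had 91.8, 74.4 and 83.0 FPKM in nESC chromatin against 371, 317 and 328 in cytoplasm (-2.02, SE 0.08, adjusted p = 5.80e-11). Psmd2, a scaffold of the base, had 61.5, 62.9 and 55.2 in EpiLC chromatin against 277, 291 and 272 in cytoplasm (-2.22, SE 0.08, 1.35e-10). Both were apart in all libraries. Psmd1, the other large scaffold, had 53.1, 59.6 and 62.9 FPKM in nESC chromatin against 74.7, 72.0 and 71.7 in cytoplasm (-0.32, SE 0.07, 0.000819). For EpiLC the values were 68.4, 62.8 and 48.4 against 85.6, 77.6 and 95.3 (-0.53, SE 0.12, 0.00106). The groups of Psmd1 did not overlap, and the differences were under 2-fold. Its call turned with the processing: it was called lower with the length and GC correction (-1.03 and -1.07) and higher with one sum (1.64 and 1.297).

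In the lid, 5 of 8 genes were called lower in nESC (median -1.76) and 8 of 8 in EpiLC (-1.92). Psmd8 was the lowest in both. It had 54.0, 43.6 and 41.3 FPKM in nESC chromatin and 241, 233 and 246 in cytoplasm (-2.37, SE 0.09, adjusted p = 1.83e-11). EpiLC values were 33.9, 30.7 and 43.7 in chromatin and 243, 248 and 209 in cytoplasm (-2.69, SE 0.12, 5.99e-10). The 3 lid genes not called in nESC were Psmd6 at -0.30, Psmd11 at -0.51 and Psmd14, the deubiquitinase of the lid, at -0.81. With the length and GC correction Psmd11 was at -2.27, and it and Psmd14 were called lower. In EpiLC Psmd11 was the closest to the limit, with 39.9, 42.4 and 37.6 FPKM in chromatin and 85.8, 79.2 and 84.6 in cytoplasm (-1.05, SE 0.08, 3.92e-08). Without both EpiLC libraries numbered 3 it was at -0.995 and no longer called. With each library scaled to one sum, no lid gene was called lower in either state, and Psmd6, Psmd11 and Psmd14 were called higher in nESC chromatin.

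The chaperones that help to build the regulatory particle were called lower in 2 of 3 cases in nESC and in 3 of 3 in EpiLC, and in none with each library scaled to one sum (medians 0.42 and -0.18). Psmd10 had the lowest folds of the 3. It had 3.66, 3.72 and 3.56 FPKM in nESC chromatin against 28.4, 26.5 and 24.03 in cytoplasm (-2.69, SE 0.08, adjusted p = 3.92e-12). Its EpiLC values were 3.04, 3.35 and 3.17 against 21.3, 20.7 and 19.6 (-2.51, SE 0.09, 1.02e-10). Psmd5 was at the limit, at -0.94 (SE 0.09, 4.57e-07) in nESC, where it had 16.6, 15.7 and 20.1 against 32.7, 32.7 and 35.7. In EpiLC, with 15.1, 19.8 and 20.4 against 39.8, 39.4 and 40.5, it was at -1.11 (SE 0.11, 8.83e-07). Its call turned on 1 library in each state, since the nESC value was -1.04 and called without chromatin library 3, and the EpiLC value was -0.97 and not called without chromatin library 1. With one sum it was at 0.996 and 0.70. Psmc3ip, the recombination factor, had 13.2, 11.1 and 9.70 FPKM in nESC chromatin and 28.6, 32.2 and 29.9 in cytoplasm (-1.39, SE 0.10, 1.41e-08). The EpiLC values were 16.1, 17.2 and 19.3 against 52.5, 51.6 and 48.7 (-1.51, SE 0.09, 8.15e-09).

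The activators held the upper extreme. Psme4 (ENSMUSG00000040850, chr11:30771726-30880361, plus strand), which encodes an activator found in nuclei, was the only member called higher in chromatin in either state. In nESC its FPKM were 72.8, 84.7 and 89.5 in chromatin, 65.2, 62.3 and 65.5 in nucleoplasm, 10.9, 16.5 and 13.8 in cytoplasm and 62.2, 66.3 and 66.0 in total RNA. In EpiLC they were 111, 70.0 and 67.6 in chromatin, 107, 101 and 115 in nucleoplasm, 16.01, 16.3 and 27.8 in cytoplasm and 95.4, 88.5 and 96.4 in total RNA. All cytoplasm libraries lay far below the libraries of the other groups. The fold was 2.55 (SE 0.12, adjusted p = 2.82e-10) in nESC and 2.03 (SE 0.21, 1.35e-06) in EpiLC, and larger, at 4.48 and 3.84, with each library scaled to one sum. The EpiLC fold was 2.41 without both libraries numbered 3. Psme4 is also the longest of the members, with 8382 bp of exons. With values corrected for exonic length and GC content, its fold was 1.23 in nESC, still called, and 0.87 in EpiLC, under the 2-fold limit.

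The other activators were lower in chromatin. Psme2, of the interferon-induced pair, had 20.0, 19.4 and 15.5 FPKM in nESC chromatin against 194, 157 and 170.4 in cytoplasm (-3.22, SE 0.13, adjusted p = 7.80e-11). In EpiLC it had 46.5, 208 and 63.8 in chromatin against 441, 456 and 449 in cytoplasm (-2.39, SE 0.38, 7.48e-05). Library 2 of EpiLC chromatin was far above the other 2 in this gene and still lay below the cytoplasm. Psme2b, an intronless copy of Psme2, had 0.103, 0.162 and 0.067 in EpiLC chromatin and 27.0, 0.843 and 2.27 in cytoplasm (-2.94, SE 0.80, 0.00409). The fold was -1.66 without the first cytoplasm library, and reads of Psme2 and Psme2b may not be told apart in these tables. Psme1 and Psme3 were at -2.56 (SE 0.11, 1.19e-10) and -1.56 (SE 0.08, 4.46e-10) in nESC and at -2.40 (SE 0.08, 8.79e-11) and -1.79 (SE 0.08, 7.59e-10) in EpiLC.

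**Figure D2:**
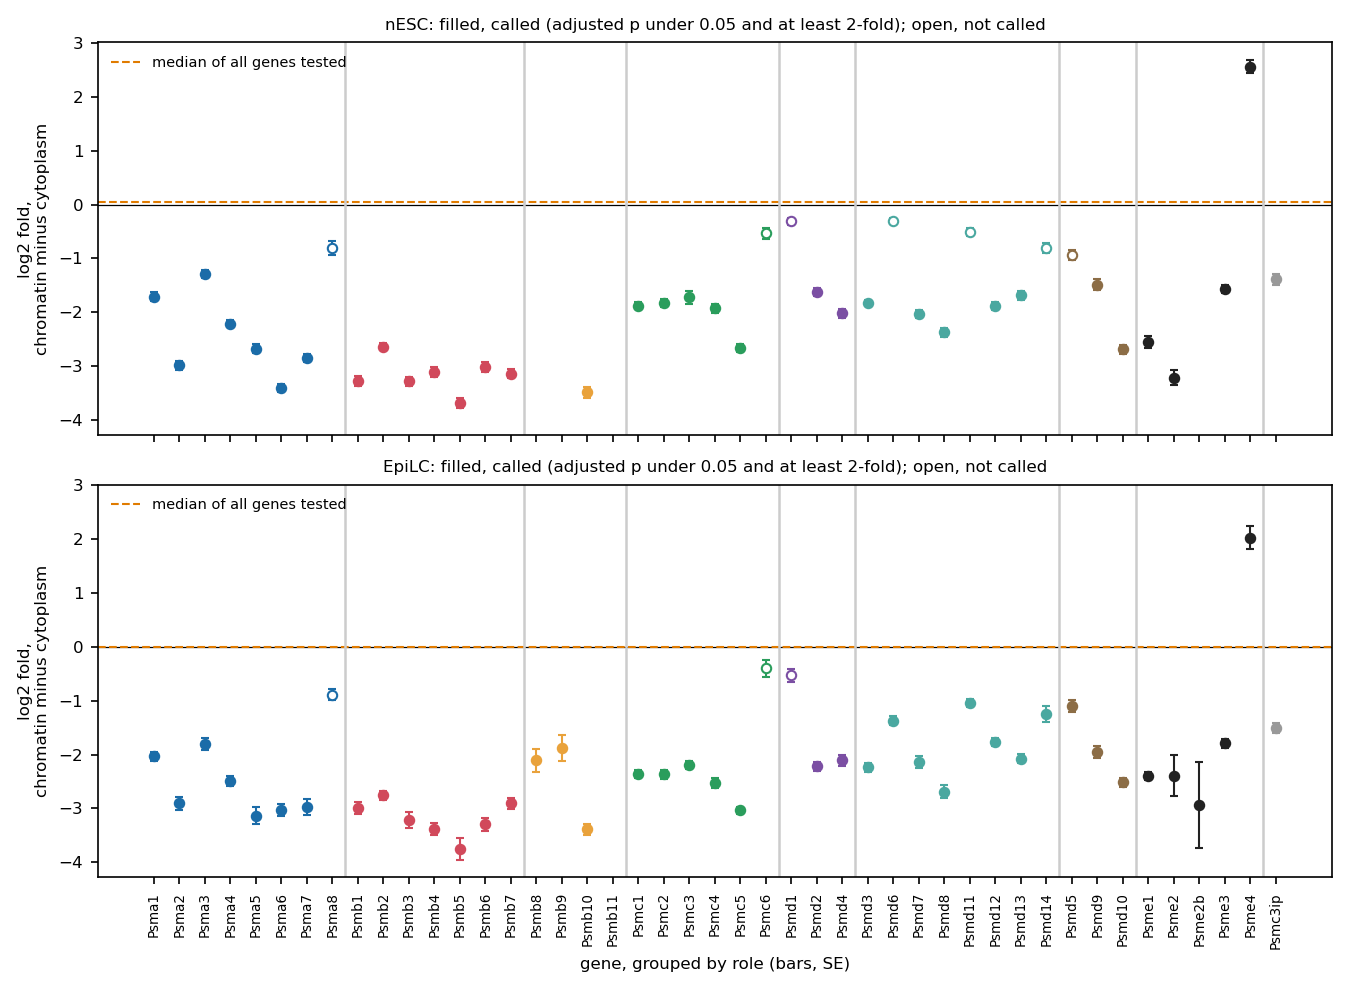
Log2 fold of chromatin minus cytoplasm (y axis, limma, bars SE) for each tested member (x axis, grouped by role and coloured by it) in nESC (top) and EpiLC (bottom), with the median of all genes as a dashed line, under the authors' scaling. Psme4 is the only member above the line in both states, and the beta ring runs from -2.64 to -3.69 in nESC. With each library scaled to one sum the line itself moves to 1.85 and 1.69.

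The folds of the members went with the length of their exons. The points of this comparison share their libraries, and FPKM are divided by a transcript length, so the relation is a description. Between log length and fold, Pearson's r was 0.64 and Spearman's rho 0.59 over the 41 members in nESC, and 0.62 and 0.58 over the 44 in EpiLC. Over all genes r was 0.40 and rho 0.44 in nESC and 0.37 and 0.42 in EpiLC. Without Psme4 the members' r was 0.59 and 0.58. The median exonic length was 2800 bp for the tested members in nESC and 4148.5 bp for all genes. In nESC Psmb5, with 899 bp, and Psme4 stood at the ends of both scales, and in EpiLC Psme2b, with 837 bp, was shorter than Psmb5. In contrast, Psmb1, with 4595 bp and a nESC fold of -3.27, and Psmd6, with 2800 bp and -0.30, did not follow the order. After the correction for exonic length and GC content the counts were 1 higher and 34 lower in nESC and 0 higher and 40 lower in EpiLC. The members called were then not all the same, with 30 and 38 shared with the uncorrected calls. The shares of all genes called after the correction are not given here.

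**Figure D3:**
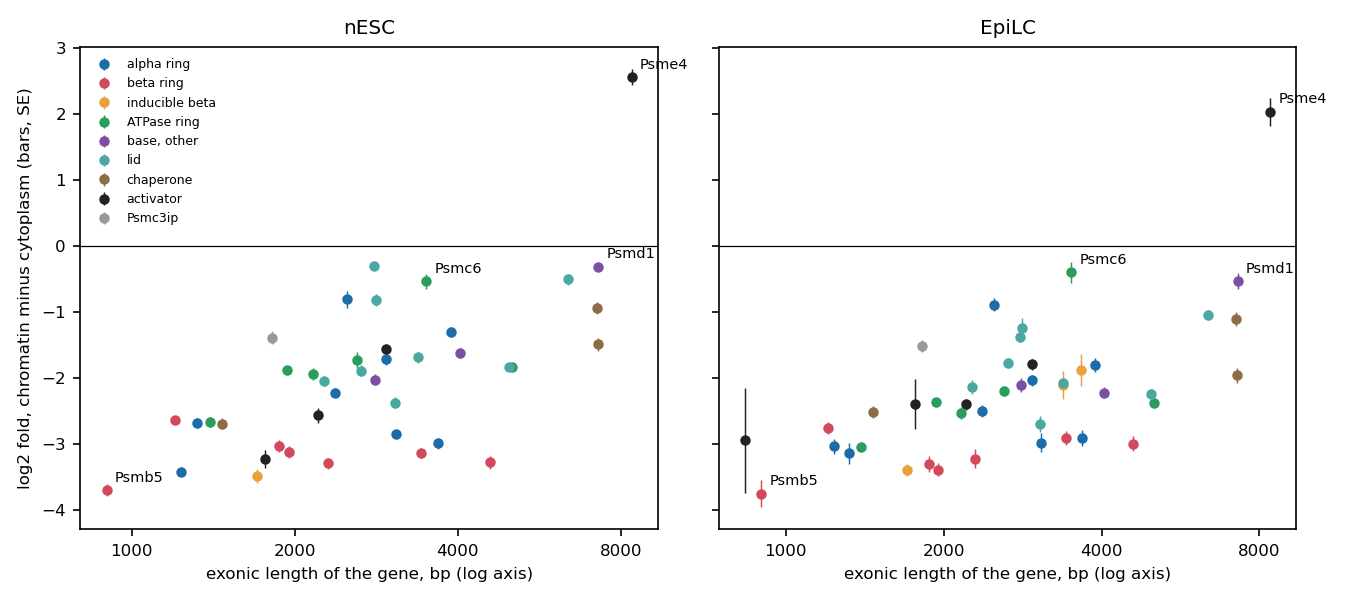
Log2 fold of chromatin minus cytoplasm (y axis, bars SE) against exonic length in bp (x axis, log axis) for each tested member, in nESC (left) and EpiLC (right), coloured by role. Psmb5 is at the lower left and Psme4 at the upper right in both states.

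Nucleoplasm lay between chromatin and cytoplasm for most members. Against cytoplasm, 19 of 41 members were called lower in nESC nucleoplasm and 1 higher, where 19.5% of all genes were called lower and 20.5% higher. In EpiLC 13 of 44 were lower and 2 higher, against 19.1% and 20.1%. The medians were -0.96 and -0.79, and -0.08 and -0.15 over all genes. The direction of this comparison turned with the scaling: with one sum, 7 members were called higher and 0 lower in nESC and 6 higher and 0 lower in EpiLC, with the median of all genes at 0.98 and 0.71. The shares of all genes called with one sum are not given here. The beta ring had 6 of 7 genes called lower in nESC and 4 of 7 in EpiLC, and the lid had 2 of 8 and 1 of 8. These calls turned with the length and GC correction, which kept 6 of the 20 members called in nESC and 2 of the 15 in EpiLC. In the beta ring the EpiLC calls of Psmb3, Psmb4, Psmb5 and Psmb6 were lost and Psmb7 was gained. Psmb5 was then at -0.36 in nESC and -0.07 in EpiLC. Psme4 was called higher in nucleoplasm in both states (2.21, SE 0.12, adjusted p = 3.88e-09 and 2.45, SE 0.21, 5.07e-07).

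Psmc6 was the member whose nucleoplasm stood out. Its FPKM in nucleoplasm were 97.9, 91.5 and 105 in nESC and 167, 151 and 163 in EpiLC, above its chromatin and its cytoplasm in all libraries. In total RNA it had 176, 186 and 176 in nESC and 134, 125 and 133 in EpiLC. The nESC values of total RNA lay above those of all its fractions. The fold of nucleoplasm minus cytoplasm was 0.91 (SE 0.11, adjusted p = 5.49e-06) in nESC, under the 2-fold limit, and 1.78 (SE 0.16, 6.85e-07) in EpiLC, called. Without the second nESC cytoplasm library the nESC fold was 1.02 and called. Cytoplasm was also lower than total RNA (-1.77, SE 0.11, 1.51e-08 and -1.49, SE 0.16, 5.09e-06). With the length and GC correction these differences were not called, at 0.21 for EpiLC nucleoplasm minus cytoplasm and at -0.05 and -0.02 for cytoplasm minus total, while chromatin minus cytoplasm was called lower at -2.43 and -2.05. Nucleoplasm had the highest mean of the 3 fractions for 2 members in nESC (Psmc6 and Psmd1) and for 6 in EpiLC (Psmc6, Psmd1, Psmd6, Psmd12, Psmd14 and Psme4).

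Chromatin against nucleoplasm gave 24 members lower and 0 higher of 41 in nESC, against 17.3% and 17.4% of all genes, and 35 lower and 0 higher of 44 in EpiLC, against 16.7% and 16%. The medians were -1.27 and -1.59, with 0.02 and -0.07 over all genes. With one sum the counts were 10 lower and 1 higher in nESC and 21 lower and 0 higher in EpiLC. This scaling shifts all genes by construction. The share of all genes called under it is not given here, so these counts are not set against it. All 7 beta ring genes were called in both states, while the lid had 3 of 8 in nESC and 7 of 8 in EpiLC. Whether this count of lid genes differs between the states was not tested in this comparison. Psmb5 again had the lowest fold in EpiLC (-2.61, SE 0.20, adjusted p = 2.29e-07), and Psma6 in nESC (-2.33, SE 0.07, 8.64e-11). Psme4 was not called in either state, at 0.35 (SE 0.12, 0.0196) and -0.42 (SE 0.21, 0.0968). The EpiLC call of Psme2 (-1.21, SE 0.38, 0.0137) turned on its chromatin libraries. It was at -0.77 and not called without library 1, at -0.998 and not called without library 3, and at -1.85 and called without library 2.

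Against total RNA, cytoplasm held 1 member called higher (Psmd3) and 2 lower (Psmc6 and Psme4) of 41 in nESC, where 16% of all genes were called higher and 19.4% lower. In EpiLC 14 of 44 were higher and the same 2 lower, against 12.7% and 17.6%. Psmd3, a lid subunit, had 166, 156 and 161 FPKM in nESC cytoplasm and 63.3, 59.6 and 67.0 in total RNA, with no overlap (1.34, SE 0.06, adjusted p = 1.81e-09). The medians were 0.33 and 0.72, with 0.11 and 0.16 over all genes, and 4 of 7 beta ring genes were among the 14. With the length and GC correction 3 of the 16 EpiLC calls were kept. In the beta ring Psmb3, Psmb4, Psmb5 and Psmb6 were lost and Psmb7 was gained. With one sum the counts turned, to 0 higher and 14 lower in nESC and 1 higher and 6 lower in EpiLC. The cytoplasm libraries have the larger FPKM sums, so this scaling lowers all genes in cytoplasm against total RNA by construction. The share of all genes called under it is not given here. Total RNA had a higher mean than all 3 fractions for 14 of the 41 members in nESC and for 0 of the 44 in EpiLC. A whole cannot exceed all of its parts on one scale. The nESC levels of fractions and of total RNA are therefore not amounts on one scale, which limits the count of members there. The comparisons of one state share libraries, so they do not support each other.

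**Figure D4:**
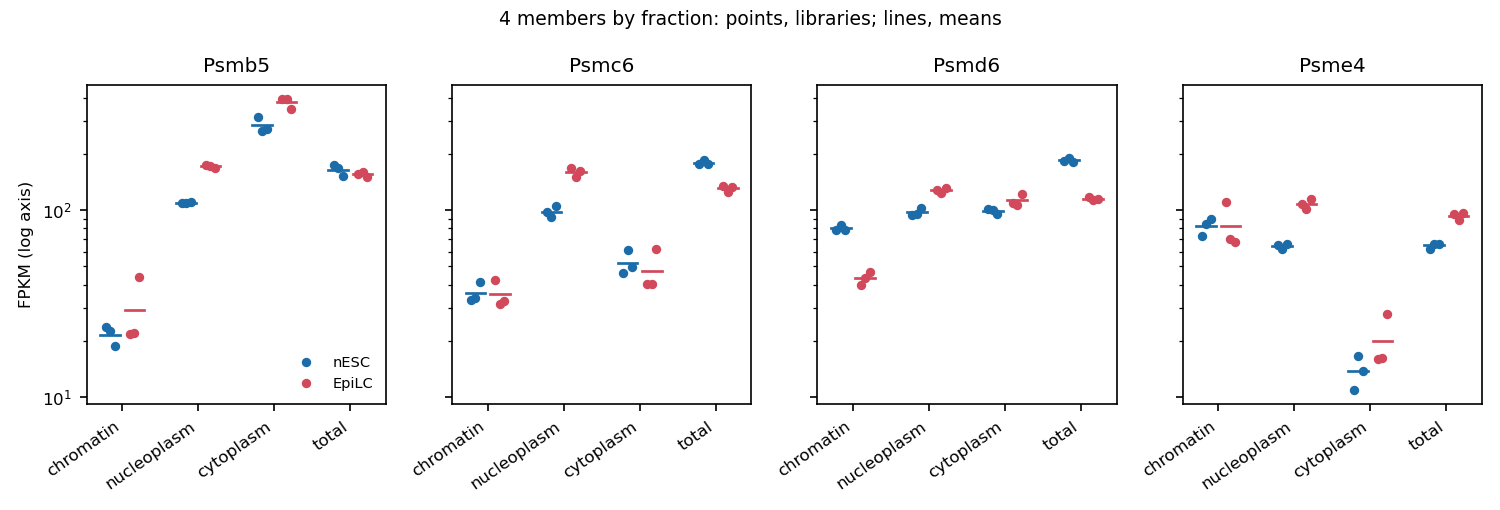
FPKM (log axis) of Psmb5, Psmc6, Psmd6 and Psme4 in the 3 libraries of each fraction (x axis), nESC in blue and EpiLC in red, with lines at the means. Psmb5 climbs from chromatin to cytoplasm, Psmc6 is highest of the 3 fractions in nucleoplasm, Psmd6 is lower in EpiLC than in nESC chromatin, and Psme4 is lowest in cytoplasm.

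Whether the fold of chromatin minus cytoplasm differed between the states was tested as an interaction over the 12 libraries of these fractions, each centred on its median. None of the 41 members tested in both states was called with limma, where 8.92% of 11704 genes were. An unadjusted p under 0.05 was found for 8 members. The share of all genes under that limit is not given here, so this count is not set against it. The members' median difference, EpiLC minus nESC, was -0.13, and -0.02 over all genes. Psmd6, a lid subunit, was the closest to a call. Its FPKM were 78.0, 83.7 and 78.4 in nESC chromatin, 101, 100.025 and 95.7 in nESC cytoplasm, 39.8, 43.1 and 46.9 in EpiLC chromatin and 109, 106 and 123 in EpiLC cytoplasm. Its EpiLC chromatin libraries were all far below those of nESC, while the cytoplasm libraries were close. The difference was -0.97 (SE 0.15, adjusted p = 0.000867), just under the 2-fold limit, and it was called at -1.04 without EpiLC chromatin library 3, at -1.01 without EpiLC cytoplasm library 2, at -1.20 with one sum and at -1.07 with no filter or no centring. Psmd2 (-0.50, SE 0.16, 0.0381), Psmc4 (-0.50, SE 0.17, 0.0477) and Psmc2 (-0.44, SE 0.14, 0.0421) also passed the adjusted p at less than 2-fold. The share of all genes that pass the adjusted p alone is not given here. Psme2 was at 0.92 (SE 0.54, 0.251), and at 1.37 and called without EpiLC chromatin library 1.

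The levels of the 2 states come from tables that were normalized separately, so they are set side by side with no test. In total RNA the median log2 level of the 41 members, EpiLC minus nESC, was -0.23, where that of all genes was -0.01. Of these members 30 were higher in nESC and 11 higher in EpiLC. With each library scaled to one sum the members' median was -0.01. Psmb10 was at least 2-fold higher in EpiLC and Psma8 at least 2-fold higher in nESC, 1 member each way, where 13.4% and 10.4% of 11704 genes were. In chromatin 3 members were at least 2-fold higher in EpiLC (Psmb10, Psme1 and Psme2), in nucleoplasm 4 (those 3 and Psmd7) and in cytoplasm 2 (Psmb10 and Psme2), and none was that much higher in nESC. Over all genes the shares higher in EpiLC were 8.12%, 10.9% and 10.4%, and the shares higher in nESC 7.25%, 9.71% and 8.17%. The members' medians were -0.02, 0.59 and 0.24 in these fractions, with -0.02, 0.11 and 0.13 over all genes. In the same order 20, 38 and 30 members were higher in EpiLC and 21, 3 and 11 higher in nESC. The split of total RNA was thus not seen in nucleoplasm or cytoplasm.

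The members that interferon is known to induce had higher total RNA levels in EpiLC, as did some other members. Psmb10 in total RNA was at 30.1, 30.1 and 28.2 FPKM in nESC and at 134, 132 and 135 in EpiLC, means of 29.5 ± 1.09 and 134 ± 1.74 (SD, n = 3). Psmb8 was at 0.0187, 0.044 and 0.118 in nESC total RNA and listed at 0 in its 3 cytoplasm libraries, and in EpiLC it was at 3.09, 3.46 and 2.81 in total RNA. Psmb9 was at 0.234, 0.236 and 0.224 in nESC total RNA and at 4.09, 2.97 and 2.97 in EpiLC. In total RNA the 3 genes were higher in every EpiLC library than in every nESC library, though Psmb8 and Psmb9 stayed at a few FPKM. The share of all genes that separate in this way is not given here. Psme1 was at 72.5 ± 4.05 in nESC and 92.5 ± 3.42 in EpiLC, and Psme2 at 120.3 ± 5.29 and 183 ± 4.29. The ratio of means, EpiLC over nESC, was 1.27 for Psme1. It was larger for Psmd7 (1.75), Psme3 (1.45), Psme4 (1.44) and Psmd11 (1.32), which are not of this group. Of the 41 members tested in both states, 11 were higher in EpiLC and 30 higher in nESC. Psmb11, the subunit of the thymus, was at or under 0.119 FPKM in all 24 libraries.

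Ratios of partner genes within a library do not depend on the scaling of the tables. They were chosen after the levels were seen. Psmb10 takes the place of Psmb7 in the core that interferon induces, and per 100 FPKM of Psmb7 it had 9.22 ± 0.211 in nESC and 58.3 ± 1.26 in EpiLC total RNA (SD, n = 3). The ratio was 8.64 and 51.2 in chromatin, 8.94 and 49.2 in nucleoplasm and 12.1 and 72.2 in cytoplasm, with no overlap between the states in any fraction. Psmb8 per 100 Psmb5 was 0.0382 ± 0.0351 and 2.00 ± 0.157 in total RNA, and Psmb9 per 100 Psmb6 was 0.0402 ± 0.00220 and 0.809 ± 0.155. Psma8, which takes the place of Psma7 in the testis, went the other way, with 6.92 ± 0.227 per 100 Psma7 in nESC and 2.30 ± 0.0987 in EpiLC total RNA. Its ratio was also lower in EpiLC in chromatin (14.6 and 6.76), nucleoplasm (7.35 and 3.43) and cytoplasm (3.57 and 1.60), with no overlap. With 3 libraries against 3, an exact permutation test, two-sided, cannot go below p = 0.1.

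**Figure D5:**
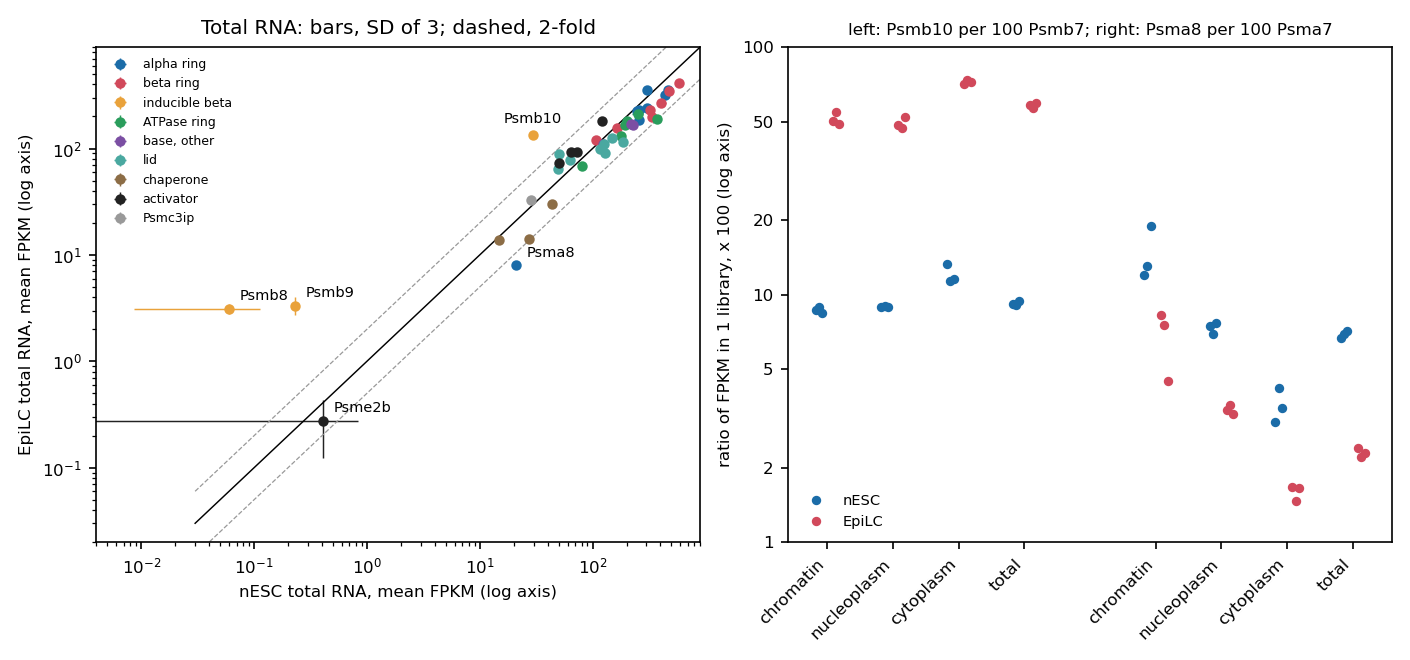
Left, mean FPKM in total RNA of nESC (x axis) and EpiLC (y axis), both log axes, for the members with at least 0.05 FPKM in both (all but Psmb11), bars SD of 3 libraries, with lines of equal level and of 2-fold. Right, the ratio of Psmb10 to Psmb7 and of Psma8 to Psma7 in each library, times 100 (log axis), by fraction. The lower SD bar of Psme2b in nESC reaches 0 and runs to the edge. The EpiLC points of Psmb10 lie above those of nESC and the EpiLC points of Psma8 below them in each fraction.

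Levels of the subunits that assemble into 1 ring were not equal per length. Among the 14 core genes without Psma8, total RNA of nESC ran from 108 FPKM (Psmb2) to 578 (Psmb6), a 5.37-fold range, and that of EpiLC from 120 (Psmb2) to 413 (Psmb6), 3.45-fold. In the beta ring the order was Psmb6, Psmb3, Psmb4, then Psmb1 and Psmb7, then Psmb5 and Psmb2 in both states, except that Psmb7 was above Psmb1 in EpiLC. Neighbours did not overlap in this order apart from Psmb1 and Psmb7 in nESC. In the alpha ring Psma3 was highest in both states, with Psma2 next in nESC and Psma7 next in EpiLC, and each of these overlapped Psma3. The 6 ATPase genes spanned 4.58-fold in nESC, from Psmc2 at 80.8 to Psmc3 at 370, and 3.07-fold in EpiLC, from Psmc2 at 68.8 to Psmc4 at 211. The 8 lid genes spanned 3.75-fold in nESC, from Psmd11 at 49.2 to Psmd6 at 185, and 1.92-fold in EpiLC, from Psmd11 at 64.8 to Psmd14 at 124. Psmd7 differed most between the states in the lid, at 47.7, 51.5 and 53.0 FPKM in nESC and 88.3, 87.4 and 91.2 in EpiLC total RNA. Psmc3 went the other way, at 370 ± 25.5 and 190 ± 7.08 (SD, n = 3), just under 2-fold. Among the activators Psme2 was the highest in both states, Psme4 and Psme1 overlapped in EpiLC, and Psme2b was under 1 FPKM in all total RNA libraries.

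Other genes of the pathway were taken from 7 lists of 35 genes, all of which were tested. In chromatin against cytoplasm 15 were lower and 5 higher in nESC, where 29.7% and 31.8% of all genes were. In EpiLC 18 were lower and 3 higher, against 28.4% and 29.1%. The 5 assembly factors, which build the core and are not part of it, were lower in both states, from -3.53 (Psmg4) to -1.22 (Psmg2) in nESC and from -3.38 (Psmg4) to -1.76 (Psmg2) in EpiLC. The genes higher in chromatin in both states were Usp14, a deubiquitinase bound to the base (2.46 and 1.94), Ecpas, an adaptor of the proteasome (2.08 and 1.82), and Uba6, an enzyme that activates ubiquitin (4.004 and 3.49). Nfya (1.23) and Ufd1 (1.47) were called higher in nESC only, and of these the difference between the states was called for Ufd1 (-1.12, SE 0.20, adjusted p = 0.00208) and not for Nfya (-0.43, SE 0.28, 0.298). Nfe2l1, the gene of NRF1, was at -0.92 and -0.51 and Nfe2l2 at 0.23 and 0.48, not called. Ubb, a ubiquitin gene, was lower in chromatin at -3.45 and -2.97. These folds follow the authors' scaling. With each library scaled to one sum all genes move toward higher values in chromatin. The calls of the 35 genes under that scaling, or with the length and GC correction, are not given here. In total RNA the levels of the shuttle factor genes Ubqln1 and Ubqln2 in EpiLC exceeded those in nESC by 2-fold or more, and the reverse held for Ngly1, which acts on NRF1. The median difference over the 35 was 0.04.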

How the data were processed

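RNA of 4 kinds was sequenced from 2 states of E14 cells, in 24 libraries grouped by the labels. The authors' deposited values are FPKM per gene, and the submitters' processing notes name TopHat2, Cuffnorm and the build GRCm38 (mm10). Libraries were strand-specific and depleted of ribosomal RNA, per the labels' protocols. Whether counting used the strand, the annotation and the tool versions and settings: not given in the sources used here. Reads of near-identical copies and of overlapping genes may therefore be shared. Each state has its own table, normalized on its own, with FPKM sums of 432706 to 1980220. Symbols were matched by Ensembl ID for 29586 genes and not for 173, and positions and exonic lengths come from GENCODE M21. All per-sample columns were used. Depth was read from the FPKM steps of 1086 genes of 3000 to 10000 bp.

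Fractions were compared with limma 3.58.1 in R 4.3.3 (two-sided, trended eBayes) on log2(FPKM + 0.5). Genes averaging 1 FPKM or more in a table were kept, and its 12 libraries entered 1 fit. Calls needed at least a 2-fold difference and a Benjamini-Hochberg adjusted p, over all genes, under 0.05. The tests were checked on simulated data. Values of some genes of the pathway lists are not reported here. The members, roles and pathway lists were chosen with earlier results of these data known. Values of every library were given by rule for Psmb5, for the members with the lowest and highest fold of each role and state, and for those called higher in chromatin. Others (Psmd3, Psmd7, Psmb8, Psmb9 and Psmb11) and the ratios were added after their values were seen.

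Other settings tried were a pseudocount of 0.1 or 1, a filter at 5 FPKM or none, centring on the median, scaling to one sum, no trend, only the 2 fractions compared, a replicate block, isolated zeros as missing, each library left out, and the 2 EpiLC libraries of chromatin and cytoplasm numbered 3 dropped together. A correction for exonic length and GC content (spline of 5 degrees of freedom) and the level median without the 5 interferon-induced members were chosen after seeing the data.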

Additional observations from a re-analysis of the deposited data

How the results depend on the processing

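Scaling each library to one sum gave 17 members called in nESC chromatin minus cytoplasm, 7 in nucleoplasm minus cytoplasm, 11 in chromatin minus nucleoplasm and 14 in cytoplasm minus total. The EpiLC counts were 16, 6, 21 and 7, the interaction had 1, and the level median in total RNA was -0.012. Of the members named by rule, the nESC folds of chromatin minus cytoplasm then changed sign for Psma8 (1.09), Psmc3ip (0.53), Psmc6 (1.41), Psmd1 (1.64), Psmd11 (1.44), Psmd2 (0.34), Psmd5 (0.996) and Psmd6 (1.66). The EpiLC folds did so for Psma8 (0.845), Psmc3ip (0.30), Psmc6 (1.42), Psmd1 (1.297), Psmd11 (0.78), Psmd5 (0.70) and Psmd6 (0.46). Centring on the median gave 6 in nESC cytoplasm minus total and 23 in EpiLC nucleoplasm minus cytoplasm. The correction for exonic length and GC content gave 11 in nESC and 7 in EpiLC nucleoplasm minus cytoplasm, and 5 in nESC and 9 in EpiLC cytoplasm minus total. In this order only 6, 2, 1 and 3 of them were also called without the correction. The interaction had 2 with no filter, 1 with no centring and 0 to 1 with 1 library left out. The cause of these shifts was not tested, beyond the shift of all genes that the sum scaling makes by construction. The shares of all genes called under these settings are not given here, so the counts are not set against them. Without both EpiLC libraries numbered 3, chromatin minus cytoplasm had 40 called members, all 40 among the 41. The replicate block gave 34, 20, 24 and 3 in nESC, 41, 15, 35 and 16 in EpiLC and 0 in the interaction, the counts without it. Deviations of libraries with the same number correlated at -0.22 to 0.18, and a library correlated best with its own number in 26 of 72 cases. No pairing by number was detected. Spread within each fraction could hide one, so this check cannot exclude that libraries of one number share a culture. Psmb8, Psmb9, Psmb11 and Psme2b were left out of the nESC tests by the filter at a mean of 1 FPKM. Whether deeper sequencing would change their values was not tested.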
